A study of Mus musculus with 7 samples.

Results

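The interleukin-12 family, Il10, Il15 with its receptor chain Il15ra, and Tgfb1 are genes through which dendritic cells steer T cells and natural killer cells. They were read in splenic cells of mice that had received allogeneic hematopoietic stem cells 7 days earlier. The cells had been enriched for CD11c, a surface marker of dendritic cells, on magnetic beads. The members were all probe sets of the array whose annotation names one of 9 listed genes and no other gene. This gave 10 probe sets for 8 genes, out of 22625 probe sets tested. Il12b and Il15ra had 2 probe sets each, the other 6 genes had 1, and Il27 was named by none and has no value here.

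The arrays fell into 2 groups, 3 labelled Atg16L1 hypomorphic and 4 labelled WT, and every label gives the C57BL/6J background. The protein made from Atg16l1 helps attach LC3 to autophagosome membranes, and a hypomorphic allele reduces a gene's function without abolishing it. All mice had been transplanted, and the labels do not say whether the genotype is that of the recipient, of the donor or of both. The sample protocol gives 9 weeks of age at collection and the text on the design 8 weeks. Each array was hybridized with labelled cDNA from 100 ng of total RNA of the sorted cells and gave 1 value per probe set on a log2 scale. The labels do not say whether separate animals gave the arrays. The p-values therefore measure the spread between these 7 samples, which may be technical, and their number limits the precision.

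Members of the interleukin-12 family are secreted as pairs of chains. An alpha chain (Il12a, Il23a or Il27) joins a beta chain (Il12b or Ebi3). Il12a with Il12b makes interleukin-12, which drives interferon gamma production by T cells and natural killer cells. Il23a with Il12b makes interleukin-23, which maintains T cells that secrete interleukin-17. Il27 with Ebi3 makes interleukin-27, and Il12a with Ebi3 makes interleukin-35, which is described mainly as a suppressive cytokine. Il10 and Tgfb1 restrain T cell responses, while Il15, held at the cell surface by Il15ra, sustains natural killer cells and memory CD8 T cells.

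Array medians lay between 5.46 and 5.53, and each array's mean correlation with the others between 0.990 and 0.993. Atg16l1 read 6.86, 6.76 and 6.94 in hypomorph arrays 1 to 3, all below the WT range of 7.20 to 7.42. Its log2 change was -0.45 (limma adjusted p = 0.462), and where the probes lie in the modified allele is not known here, so the labels are checked only in part. Of the dendritic cell markers, Itgax (CD11c) read 7.98 to 8.48 and the MHC class II gene H2-Aa 11.86 to 12.41 over the 7 arrays. Zbtb46 and Ccr7, also among these markers, read lower, at 4.70 to 5.75 and 4.41 to 5.27. The cells were mixed: the red pulp macrophage genes Vcam1, Spic and C1qa read 12.61 to 13.16, 10.43 to 11.61 and 11.95 to 12.84. The neutrophil genes S100a8 and S100a9 read 13.40 to 13.88 and 13.53 to 14.13, and the cytotoxic lymphocyte gene Gzma 12.58 to 13.08. Markers of dendritic cell subsets were uneven. In the CD8 lineage list Xcr1 read 3.73 to 4.57 but Batf3 6.95 to 7.80 and Cadm1 8.13 to 9.44, and in the CD11b lineage list Cd209a read 2.90 to 3.39 but Clec10a 6.47 to 8.36 and Sirpa 9.71 to 10.73. In such a bulk sample fewer cells of a type and less RNA per cell cannot be told apart.

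No member passed the test between the groups in the fit over all probe sets. With limma and Benjamini-Hochberg adjustment, 0 of the 10 probe sets had an adjusted p under 0.05, as was so for 0% of all probe sets. The members' adjusted p ran from 0.644 to 0.942. An unadjusted p under 0.05 was reached by 2 of 10, Il10 and 1 probe set of Il15ra, both higher in the hypomorph. The background for this count is 7.69% of all probe sets in either direction, 4.35% higher and 3.34% lower in the hypomorph. A full separation of the groups was seen for 0 of 10, against 5.57% of all probe sets, 3.07% with the hypomorph higher and 2.5% with the hypomorph lower. The log2 change was positive for 5 members and negative for 5, against 50.7% positive among all probe sets, and the members' median was -0.02, against 0.002 for all. The 5 negative ones were those of Il12a, Il23a, Il12b (2 probe sets) and Ebi3, the measured chains of the interleukin-12 family. Of these only Ebi3 had a mean above the range of genes of other organs, given below.

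**Figure D1:**
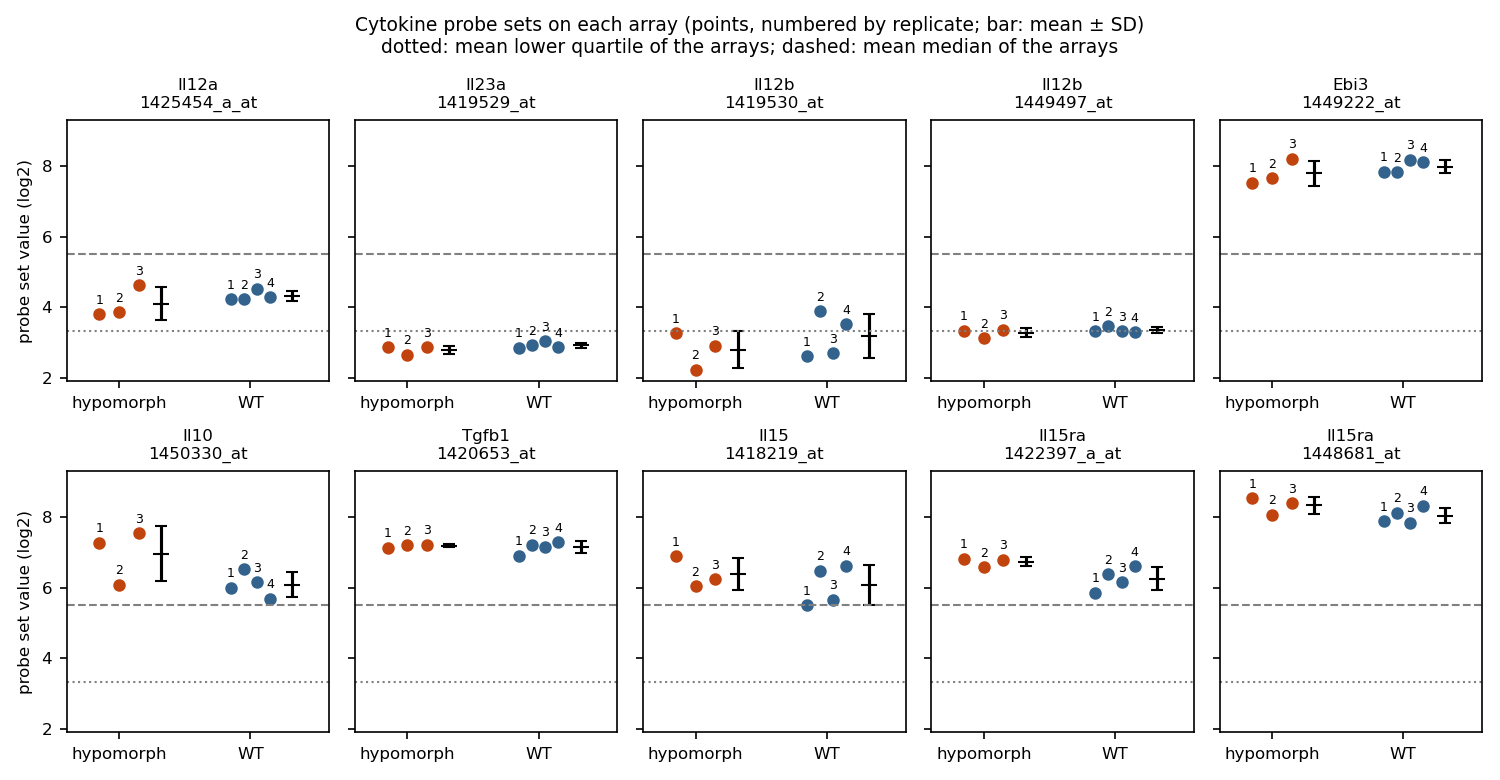
Log2 value of each of the 10 probe sets (vertical axis) in the 3 hypomorph and 4 WT arrays, with numbers giving the replicate and bars the mean ± SD. Il23a and both Il12b probe sets lie at or under the dotted line, the mean lower quartile of the arrays, on most arrays, and the Il10 points of hypomorph 1 and 3, at 7.27 and 7.53, lie above all WT points.

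A first question for each gene is whether its probe set reads a signal at all. The lower quartile of the arrays lay between 3.31 and 3.39. As a gauge, 34 genes of the eye, sperm, pituitary, kidney, lung, brain and heart had mean values from 2.33 to 4.75, with a median of 3.14. Il23a read below the lower quartile on 7 of 7 arrays, and 20 of the 34 genes of other organs had a higher mean. Each Il12b probe set read at or below the lower quartile on 5 of 7 arrays, with 18 and 11 of the 34 above them. Il12a lay between the 32.4th and the 41.7th percentile of its arrays, with 3 of the 34 above it. None of the 34 had a mean above those of Ebi3, Il10, Tgfb1, Il15 or Il15ra, whose 6 probe sets all lay above the median of the probe set means, 5.51. Changes of Il23a and Il12b, and to a lesser degree Il12a, are therefore differences between values in the range of genes of other organs. Some of these low values were identical between arrays to the last deposited digit, on 2 arrays for Il12a, 3 for Il23a and 2 for the Il12b probe set 1449497_at.

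Il12a (probe set 1425454_a_at), the alpha chain of interleukin-12 and interleukin-35, read 3.80, 3.86 and 4.63 in hypomorph arrays 1 to 3, against 4.22, 4.22, 4.52 and 4.28 in WT arrays 1 to 4. Hypomorph 1 and 2 lay below every WT array and hypomorph 3 above every one, so the groups overlapped. The log2 change was -0.22 (95% confidence interval -0.69 to 0.25, limma adjusted p = 0.780), and -0.49 without hypomorph replicate 3 (adjusted p = 0.353). Il23a (1419529_at), the alpha chain of interleukin-23, read 2.86, 2.65 and 2.86 in the hypomorph, against 2.85, 2.93, 3.03 and 2.86 in WT. The groups overlapped between 2.85 and 2.86 and the change was -0.13 (-0.32 to 0.06, limma adjusted p = 0.694).

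Il12b is the beta chain shared by interleukin-12 and interleukin-23. Its probe set 1419530_at read 3.26, 2.23 and 2.91 in the hypomorph, against 2.62, 3.89, 2.70 and 3.52 in WT. Only WT 2 and WT 4 read above the lower quartile of their arrays. The change was -0.39 with a wide interval (-1.24 to 0.47, limma adjusted p = 0.785), and leaving out 1 array moved it between -0.62 (hypomorph replicate 1) and -0.10 (hypomorph replicate 2). The other probe set, 1449497_at, read 3.33, 3.13 and 3.36 in the hypomorph, against 3.32, 3.47, 3.32 and 3.30 in WT, a change of -0.08 (-0.27 to 0.11, adjusted p = 0.801). Both had the same sign, and on each of them hypomorph 2 was the lowest of all 7 arrays and WT 2 the highest.

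Ebi3 (1449222_at), the other beta chain, was the one measured chain of the family above the median, between the 73.9th and the 81.9th percentile of its arrays. It read 7.52, 7.65 and 8.20 in the hypomorph, against 7.83, 7.82, 8.17 and 8.10 in WT. As for Il12a, hypomorph 1 and 2 lay below every WT array and hypomorph 3 above every one. The change was -0.19 (-0.60 to 0.21, limma adjusted p = 0.774, exact permutation p = 0.400). With hypomorph replicate 3 left out it was -0.40, and with hypomorph replicate 1 left out -0.06, so the size of the difference depended on which array was left out.

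Il12a and Ebi3, whose products join to interleukin-35, followed each other from array to array, with Pearson r = 0.951 and Spearman rho = 0.991 over the 7 arrays. This pair had the highest r of all pairs of member probe sets and is described without a p, since it was picked for its value and since Il12a read low. The means of several cell type lists followed both genes over the arrays, among them that of a monocyte list. The mean log2 value of 6 measured genes of 8 listed monocyte genes was 8.23, 8.72 and 9.14 in the hypomorph, against 8.65, 8.67, 9.19 and 9.12 in WT. Its genes went both ways between the groups, with 2 positive and 4 negative changes: Cd14 averaged 11.98 in the hypomorph and 11.29 in WT, and F13a1 6.71 in the hypomorph and 7.74 in WT. Of 15 cell type lists the monocyte list was the most like Ebi3 (r = 0.948), and the neutrophil list was the most like Il12a (r = 0.889). The monocyte list had r = 0.838 with Il12a and the neutrophil list 0.888 with Ebi3. Lists of other cells were not far below. The B cell list had r = 0.843 with Ebi3 and 0.818 with Il12a, and the megakaryocyte and platelet list 0.754 and 0.820. The plasmacytoid dendritic list had 0.790 and 0.639, while the erythroid list ran the other way (-0.446 and -0.509). The neutrophil list, 8 of 10 genes measured, averaged 10.63, 10.87 and 11.51 in the hypomorph, against 11.31, 11.51, 11.57 and 11.56 in WT, with all 8 genes on the negative side. Of the erythroid list Hba-a1 lay at or below the lower quartile on all arrays, and no measured gene of the other lists named here did. Some of their genes still read in the range of genes of other organs. Examples are Gp1bb (3.53 to 3.75) and Gp9 (4.30 to 4.52) of the platelet list and Pax5 (3.75 to 4.10) and Fcer2a (2.90 to 3.46) of the B cell list. The part of these cells in the Ebi3 and Il12a values was not tested. Among single probe sets with a mean above the median, the 3 most like Ebi3 were Fpr2 (r = 0.964), a formyl peptide receptor of phagocytes, Sqor (0.961), a mitochondrial sulfide oxidase, and Ncf1 (0.961), a subunit of the phagocyte NADPH oxidase. Of 10365 probe sets compared, 96 had r over 0.9 with Ebi3.

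The promoters of this pair are shown because their values moved together. The RefSeq promoter table (GRCm38.p6) held entries for 5 of the listed genes with 7 transcript starts in all, each entry being 250 bases before to 50 after a start, written 5′ to 3′ on the gene's strand. Ebi3 lies at chr17:55952373-55952672 (plus strand) and the downstream start of Il12a at chr3:68691174-68691473 (plus strand). Capitals mark matches on either strand to 4 motifs: AANNGAAA for interferon regulatory factors, GGAANNNCC for NF-kB, TGANTCA for AP-1 and CCGGAA for ETS factors.
Ebi3: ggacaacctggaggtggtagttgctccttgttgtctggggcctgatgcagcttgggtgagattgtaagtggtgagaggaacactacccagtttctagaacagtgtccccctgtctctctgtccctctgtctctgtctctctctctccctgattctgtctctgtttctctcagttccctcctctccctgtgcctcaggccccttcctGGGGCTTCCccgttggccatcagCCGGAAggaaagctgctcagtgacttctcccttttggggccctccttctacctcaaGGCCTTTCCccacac
Il12a: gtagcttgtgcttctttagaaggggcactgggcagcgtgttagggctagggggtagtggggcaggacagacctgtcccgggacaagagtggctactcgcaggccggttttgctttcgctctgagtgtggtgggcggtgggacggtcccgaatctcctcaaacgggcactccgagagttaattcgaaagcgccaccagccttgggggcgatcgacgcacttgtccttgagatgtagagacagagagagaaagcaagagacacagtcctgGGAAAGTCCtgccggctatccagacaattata

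Counting from the start, the NF-kB letters matched in the Ebi3 promoter at -44 and 36 and the ETS letters at -21, with no overlap between matches. In the downstream promoter of Il12a the NF-kB letters matched at 19, and in its upstream promoter at -194. These letters were found in 18.5% of all 32851 promoters of the table, and the ETS letters in 14.9%. The entries of Il12b and Tgfb1 held none of the 4 motifs. A match gives the letters only and does not show that a factor binds. The lack of a match to these fixed letters does not show that no factor binds.

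**Figure D2:**
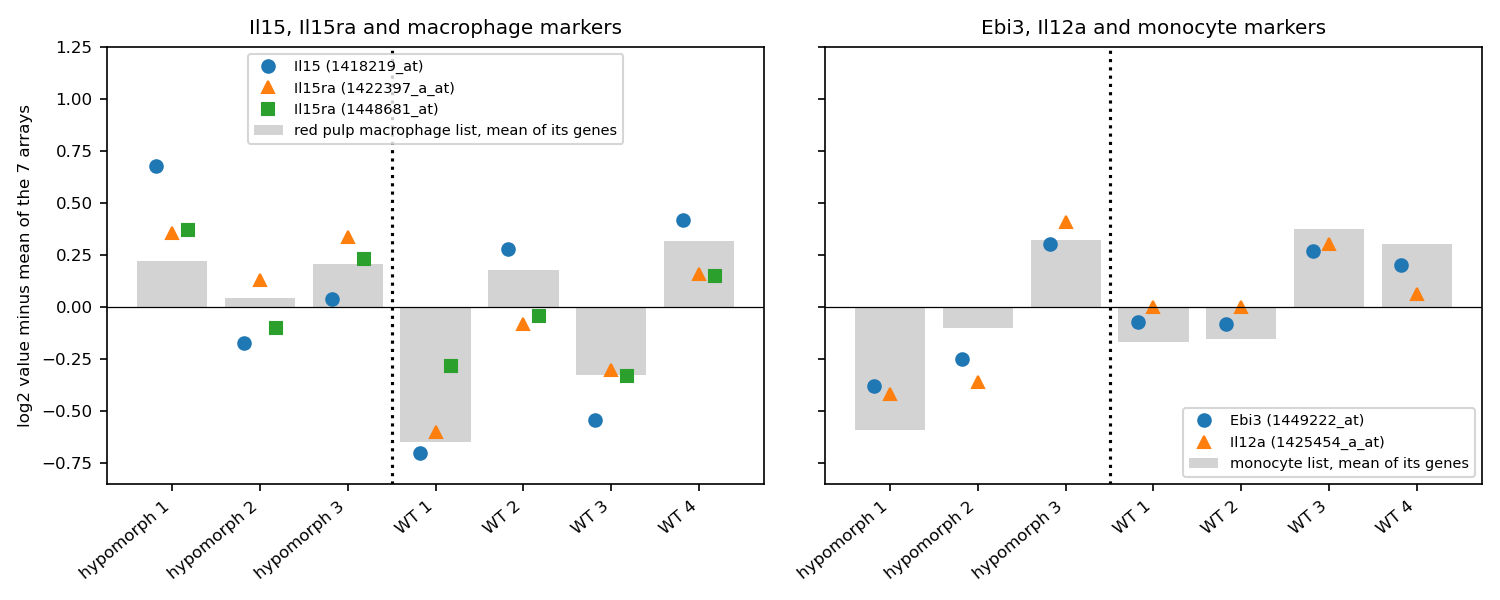
Log2 value minus the mean of the 7 arrays (vertical axis) for Il15 and Il15ra with the red pulp macrophage list (left, grey bars) and for Ebi3 and Il12a with the monocyte list (right, grey bars), on each hypomorph and WT array. Il15 and Il15ra are lowest on WT 1 and WT 3, where the macrophage list is lowest, and Ebi3 and the monocyte list are lowest on hypomorph 1.

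Il10 (1450330_at), a cytokine that limits the activation of macrophages and dendritic cells, had the largest change of the members. It read 7.27, 6.08 and 7.53 in hypomorph arrays 1 to 3, against 6.00, 6.51, 6.15 and 5.68 in WT arrays 1 to 4. Hypomorph 1 and 3 lay above every WT array and hypomorph 2 within the WT range. The means were 6.96 ± 0.77 in the hypomorph (SD, n = 3) and 6.09 ± 0.34 in WT (SD, n = 4), a 1.83-fold higher level. The log2 change was 0.87 (0.06 to 1.68, limma unadjusted p = 0.0383, adjusted p = 0.644), with an exact permutation p of 0.143 (two-sided). The 35 ways to split 7 arrays into 3 and 4 allow no p under 0.0286. Without hypomorph replicate 2 the change was 1.31 (adjusted p = 0.123), and without hypomorph replicate 3 it was 0.59 (adjusted p = 0.842).

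Markers of other cells also differed among the hypomorph arrays. The erythroid list (7 of 9 genes measured, with Hba-a1 at or below the lower quartile on all arrays) averaged 7.04, 8.48 and 5.66 in the hypomorph, against 7.90, 8.21, 7.57 and 7.60 in WT. Hypomorph 1 and 3 were thus the 2 lowest arrays for erythroid genes and the 2 highest for Il10. The plasma cell list (6 of 7 genes measured, all 6 on the positive side) averaged 7.04, 6.90 and 7.20 in the hypomorph, against 6.63, 6.51, 6.77 and 6.74 in WT. The list most like Il10 was that of stroma and endothelium (10 of 10 measured, r = 0.820), at 5.03, 4.75 and 4.88 in the hypomorph, against 4.38, 4.77, 4.55 and 4.54 in WT. Col1a1 of this list lay at or below the lower quartile on all arrays. Col3a1 (2.90 to 3.68), Pdgfrb (3.26 to 3.97) and Madcam1 (3.65 to 4.18) also read in the range of genes of other organs. Of the changes of the stroma and endothelium list 8 were positive and 2 negative. The basophil and mast cell list (7 of 8 genes measured) ran the other way (r = -0.719 with Il10, against 0.715 for the plasma cell list). It averaged 5.45, 5.35 and 5.17 in the hypomorph, against 6.21, 6.17, 5.75 and 6.64 in WT, without overlap. All 7 of its changes were negative, and 0 passed the adjusted threshold. In limma 5 had an unadjusted p under 0.05, against 3.34% of all probe sets lower in the hypomorph. For 3 the groups did not overlap, against 2.5% of all probe sets with the hypomorph lower. The part of these cells in the Il10 values was not tested. The 3 single probe sets most like Il10 were Mnt (r = 0.980), a partner of Max that opposes Myc, Nr2c2ap (0.970), a nuclear receptor-associated protein, and Clcf1 (0.961), a cytokine of the interleukin-6 family.

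Interleukin-10 signals through Il10ra and Il10rb to Stat3, which induces Socs3, a feedback inhibitor of cytokine signalling. Within the hypomorph Socs3 had the same order of arrays as Il10, which was noticed after the values were seen. Its probe set of highest mean, 1455899_x_at, read 10.34, 9.62 and 10.42 in the hypomorph, against 9.72, 9.47, 9.81 and 9.25 in WT. Within WT the order was not shared: Il10 was highest on WT 2 (6.51), where each Socs3 probe set read below WT 1 and WT 3. The other Socs3 probe sets had the same order within the hypomorph, and the 3 changes were 0.54, 0.57 and 0.59, with unadjusted p from 0.0183 to 0.0333 and adjusted p = 0.644 in limma. Stat3 read 9.29, 8.93 and 9.19 in the hypomorph, against 8.87, 8.62, 8.98 and 8.72 in WT, a change of 0.34 (adjusted p = 0.644). Its other probe sets gave 0.27 for 1460700_at and 0.03 for 1424272_at, which read only 4.09 to 4.29. The receptor chain Il10ra read 7.47, 7.38 and 7.65 in the hypomorph, against 7.24, 7.04, 7.40 and 7.38 in WT, and Il10rb had a change of 0.08 (-0.23 to 0.39).

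**Figure D3:**
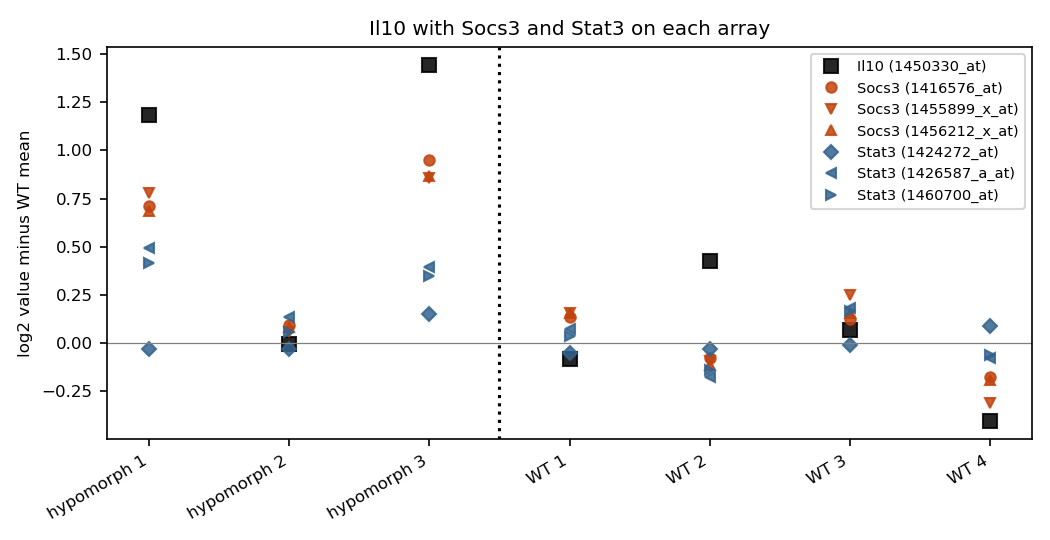
Log2 value minus the WT mean (vertical axis) for Il10, the 3 probe sets of Socs3 and the 3 of Stat3 on each hypomorph and WT array. On hypomorph 1 and 3 Il10 and Socs3 lie above all WT points of the same probe set, and on hypomorph 2 they lie within the WT range. Among the WT arrays Il10 is highest on WT 2 and Socs3 is not.

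Tgfb1 (1420653_at), a cytokine released in latent form that favours regulatory T cells, had the change closest to 0 of the members. It was at 7.13, 7.19 and 7.21 in the hypomorph, against 6.90, 7.21, 7.16 and 7.29 in WT, with all hypomorph arrays inside the WT range. The change was 0.03 with an interval of -0.20 to 0.26 (limma adjusted p = 0.942). It was -0.047 without WT replicate 1, the lowest array, and -0.0047 with array weights, so its sign was not fixed. Of 14 genes that store or activate latent TGF-beta, 12 were measured. Ltbp1, Ltbp2 and Itgb6 lay at or below the lower quartile on all arrays. Among the 12 measured genes 0 had an unadjusted p under 0.05. Mmp9, a matrix protease, had the widest spread of these, at 4.68, 6.91 and 7.91 in the hypomorph, against 7.64, 7.30, 8.24 and 7.43 in WT. Furin, which cleaves the TGF-beta precursor, had a change of 0.11 (-0.14 to 0.36), and the receptor Tgfbr2 one of 0.07 (-0.25 to 0.38). The probe sets most like Tgfb1 were Hsd17b4 (r = 0.988), a peroxisomal enzyme, Itgb5 (0.980), an integrin chain, and Ctnnd1 (0.977), a catenin that binds cadherins. Among 15 lists the CD8 lineage dendritic cell list (r = 0.858) and the red pulp macrophage list (r = 0.846) were about equally like Tgfb1, and the T cell list ran the other way (r = -0.811). The dendritic cell list was at 6.86, 6.79 and 6.85 in the hypomorph, against 6.50, 6.71, 6.84 and 7.03 in WT (7 of 9 genes measured). WT 1 was the lowest array and WT 4 the highest of Tgfb1 and of both of the first lists. The part of these cells in the Tgfb1 values was not tested.

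Il15 and its presenting receptor Il15ra both had higher means in the hypomorph. Il15 (1418219_at) read 6.88, 6.03 and 6.24 in the hypomorph, against 5.50, 6.48, 5.66 and 6.62 in WT. The WT arrays split into a higher pair, WT 2 and WT 4, and a lower pair, WT 1 and WT 3. Hypomorph 1 lay above every WT array and the other hypomorph arrays lay between these pairs. The change was 0.32 (-0.44 to 1.08, limma adjusted p = 0.802), and 0.07 without hypomorph replicate 1.

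Il15ra was read by 2 probe sets. The one that matches several transcripts of the gene, 1422397_a_at, read 6.81, 6.58 and 6.79 in the hypomorph, against 5.85, 6.37, 6.15 and 6.61 in WT. Only WT 4 reached into the hypomorph range. The change was 0.48 (0.08 to 0.88), a 1.40-fold higher level, with an unadjusted p = 0.0239, an adjusted p = 0.644 (limma) and an exact permutation p = 0.0857. Leaving out 1 array moved it between 0.35 and 0.60. The other, 1448681_at, read 8.53, 8.06 and 8.39 in the hypomorph, against 7.88, 8.12, 7.83 and 8.31 in WT, a change of 0.29 (-0.06 to 0.65, adjusted p = 0.658). Hypomorph 1 and 3 lay above every WT array and hypomorph 2 within the WT range. Over the 7 arrays the Il15ra probe sets had r = 0.888 with each other, and their r with Il15 was 0.807 for 1422397_a_at and 0.891 for 1448681_at.

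Markers of red pulp macrophages and of stroma moved with both genes. The macrophage list, with 11 of 11 genes measured and all 11 changes positive, averaged 11.52, 11.34 and 11.50 in the hypomorph, against 10.65, 11.47, 10.97 and 11.61 in WT. WT 1 and WT 3 were the 2 lowest arrays of this list, of Il15 and of both Il15ra probe sets. Of 15 cell type lists the macrophage list was the most like Il15 (r = 0.899) and the most like each Il15ra probe set (0.908 and 0.819). The stroma and endothelium list, whose values are given with Il10, had r = 0.711 with Il15, 0.831 with 1422397_a_at and 0.774 with 1448681_at. In the same order the CD8 lineage dendritic cell list had 0.627, 0.733 and 0.562, and the plasma cell list 0.265, 0.715 and 0.615. An unadjusted p under 0.05 was reached by 2 of 11 macrophage genes and 3 of 10 stroma genes, all higher in the hypomorph. The background is 4.35% of all probe sets in that direction, and 0 genes of either list passed the adjusted threshold. The part of these cells in the values was not tested. The macrophage adhesion gene Vcam1 (r = 0.983) was among the 3 probe sets most like 1422397_a_at, after Cfp (0.989), which encodes properdin of the complement system, and Smagp (0.983), a small membrane protein. The 3 most like Il15 were Sdcbp (0.987), the scaffold syntenin, Dnase1l3 (0.986), a secreted nuclease of macrophages and dendritic cells, and Dcxr (0.986), a carbonyl reductase. Those most like 1448681_at were Rab12 (0.978), a GTPase of endosomal traffic, Cfb (0.972), complement factor B, and Ifi30 (0.970), a lysosomal thiol reductase induced by interferon gamma.

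The promoter of Il15ra is shown because this gene had the smallest p of the members. Its downstream start lies at chr2:11705462-11705761 (plus strand, GRCm38.p6, RefSeq), with capitals as above.
Il15ra: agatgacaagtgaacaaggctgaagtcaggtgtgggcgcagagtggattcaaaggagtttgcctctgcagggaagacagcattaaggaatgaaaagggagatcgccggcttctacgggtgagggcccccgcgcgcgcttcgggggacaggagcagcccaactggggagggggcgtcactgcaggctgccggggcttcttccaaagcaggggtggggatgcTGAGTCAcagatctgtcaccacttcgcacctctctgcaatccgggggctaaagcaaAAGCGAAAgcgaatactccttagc

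Here the interferon regulatory factor letters matched at 27 after the start and the AP-1 letters at -30. Over all promoters of the table the first were found in 23.9% and the second in 7.81%. The upstream Il15ra promoter held the interferon regulatory factor letters at -187 and the ETS letters at -104.

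**Figure D4:**
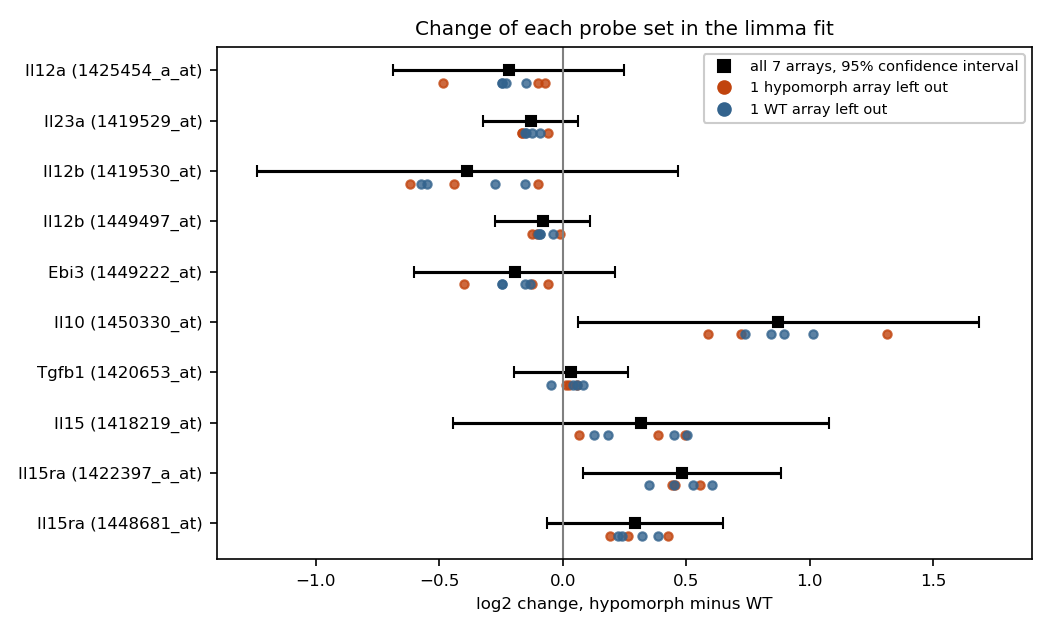
Log2 change, hypomorph minus WT (horizontal axis), of each probe set over all 7 arrays (squares, with 95% confidence intervals) and with 1 hypomorph or WT array left out (circles). The interval includes 0 for 8 of 10 probe sets, the exceptions being Il10 and the Il15ra probe set 1422397_a_at.

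The receptors and signalling genes on which these cytokines act were read from lists. Of 4 measured interleukin-12 family receptor genes, 0 passed the adjusted threshold, and all 4 changes were positive. Il6st, a receptor chain for interleukin-27 and interleukin-35, had an unadjusted p of 0.00372 (limma adjusted p = 0.644). The probe set of highest mean of Il6st read 8.73, 8.24 and 8.32 in the hypomorph, against 7.53, 7.63, 7.92 and 8.01 in WT, without overlap, a change of 0.66 (0.29 to 1.03). A second probe set, reading 4.23 to 5.28, gave 0.74 (adjusted p = 0.445), and the remaining one, reading 3.77 to 4.17, gave 0.13. Il12rb1, the chain shared by the interleukin-12 and interleukin-23 receptors, had a change of 0.23 (-0.12 to 0.57). Il12rb2, which pairs with it for interleukin-12, and Il27ra had changes of 0.04 and 0.01. The Il12rb2 values were only 3.64 to 3.89, in the range of the genes of other organs. Of 6 measured receptor genes for interleukin-10, interleukin-15 and TGF-beta, 0 reached an unadjusted p under 0.05, and the changes ran from 0.02 to 0.23. Of 14 measured JAK, STAT and SMAD signalling genes, 3 reached it (Stat3, Socs3 and Smad3), with 0 past the adjusted threshold. All 3 were higher in the hypomorph, against 4.35% of all probe sets in that direction. Smad3 read only 3.67 to 3.98, in the range of the genes of other organs.

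Among 15 measured regulators of transcription of these cytokine genes, 0 passed the adjusted threshold and 3 had an unadjusted p under 0.05, all higher in the hypomorph, against 4.35% of all probe sets in that direction. The groups did not overlap for 2, with the hypomorph higher, against 3.07% of all probe sets. Irf4 read 6.27, 6.12 and 6.33 in the hypomorph, against 5.94, 6.04, 5.79 and 5.86 in WT, without overlap. Prdm1, which encodes Blimp-1, read 7.22, 6.96 and 7.00 in the hypomorph, against 6.83, 6.42, 6.83 and 6.52 in WT, also without overlap. Both genes are themselves in the plasma cell list, so its values given with Il10 include them. Irf4 is also in the CD11b lineage dendritic cell list, which averaged 6.19 to 6.37 in the hypomorph and 6.05 to 6.22 in WT, with 7 of 8 changes positive. The part of these cells was not tested. Irf5, a factor that promotes Il12b transcription, had a change of 0.48 (0.05 to 0.92). Nfil3, which restrains Il12b in macrophages, had one of 0.77 (-0.06 to 1.59). The median change of the list was 0.18, against 0.002 for all probe sets, and the other probe sets gave 0.11 for Irf4 and 0.10 for Irf5.

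Of 13 measured genes of T helper and natural killer cell responses to these cytokines, 0 reached an unadjusted p under 0.05. Foxp3 and Ikzf2 of this list lay at or below the lower quartile on all arrays. The median change of the 13 genes was 0.14, with a range of -0.33 to 0.37. The granzyme gene Gzmb read 12.19 to 12.67 in the hypomorph and 11.93 to 12.33 in WT. Eomes, a transcription factor of interleukin-15-dependent lymphocytes, had a change of -0.33 (-0.84 to 0.18), and Ctla4, an inhibitory receptor of T cells, one of 0.37 (-0.20 to 0.93). Il17a, whose product follows interleukin-23 signalling, read 3.19 to 3.37 in the hypomorph and 3.32 to 3.67 in WT, in the range of the genes of other organs. The T cell list averaged 8.38 to 8.71 in the hypomorph and 8.09 to 8.96 in WT (9 of 12 genes measured).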

How the data were processed

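For each probe set of the Affymetrix Mouse430A GeneChip the authors deposited log2 values, made with Affymetrix Power Tools per the submitters' processing notes. How probes were summarised, background was corrected and arrays were normalized is not given in the labels or notes used here, and neither is the version. The nearly equal array quartiles show only that some normalization was done. The values were used as they were. Of 22690 probe sets, 64 controls and 1 without a value were left out. Names came from the platform annotation, matched by Entrez identifier to RefSeq genes of GRCm38.p6: 20379 probe sets named 1 gene (20350 found in that table), 691 several and 1555 none. The groups were compared by lmFit and eBayes of limma 3.58.1 (R 4.3.3) without covariates, with Benjamini-Hochberg adjustment over all 22625 probe sets. The step was tested on simulated data. Exact permutation tests used the 35 splits of the arrays.

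Named genes were all member probe sets, Atg16l1, in each pathway list up to 4 genes with the smallest p (each gene by its probe set of highest mean), and for each member above the median of probe set means the 3 other genes with the highest Pearson r. Other genes named were chosen after their values were seen. The members and lists were chosen with earlier results of these data known. Replicate numbers were not used as pairs. Alternatives were other scalings, array weights, variance settings, a block, an added constant of 32, a filter on low means and leaving out each array.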

Additional observations from a re-analysis of the deposited data

Results flagged for a closer look

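For 34 probe sets of the member and pathway genes, the 4 WT arrays were searched for 1 array far from the other 3, with a gap above Dixon's 95% critical value. This was found for 7, and chance gives about 1 in 20. Among the members it was the Il12b probe set 1449497_at, where WT 2 read 3.47 and the others 3.30 to 3.32, at the lower quartile of the arrays. WT 2 also stood apart for Il12rb1 (4.32, others 4.66 to 4.71), Il27ra (5.50, others 5.90 to 5.93) and Tgfbr3 (2.99, others 3.32 to 3.38). WT 3 stood apart for Il12rb2 (3.78, with the others at 3.66) and Irf5 (7.85, others 7.65 to 7.66), and WT 4 for Ltbp3 (4.38, with the others at 4.66). For Il12rb2 and Ltbp3 the 3 other arrays held the same deposited value, so that any gap fills the whole range.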

How the results depend on the processing

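Of 136 recomputed changes of single member probe sets, 134 kept their direction and 0 passed an adjusted p of 0.05, the smallest being 0.123 (Il10 without hypomorph replicate 2). These are not separate checks of direction. The trend and robust settings and the filter on low means leave a change as it was. The replicate block gave the same changes as leaving out WT replicate 4. The 2 that changed sign were Tgfb1 with array weights (-0.0047) and without WT replicate 1 (-0.0473, against up to 0.0821 with other single arrays left out). The number of member probe sets with an unadjusted p under 0.05 was 2 as reported, 1 with 32 added to the linear values, 1 with the replicate block, and 0 to 3 with single arrays left out. The count was 0 when hypomorph replicate 1 or WT replicate 3 was left out and 3 when hypomorph replicate 2 was. Among all probe sets the share under this p was 7.69% as reported, 7.39% with 32 added and 8.23% with the replicate block. It was 4.84% without hypomorph replicate 1, 6.42% without WT replicate 3 and 13.2% without hypomorph replicate 2, so it moved over the whole array too. When hypomorph replicate 3 was left out the 2 were Ebi3 and Il12a, both lower in the hypomorph. The share of all probe sets, in either direction, was then 6.48%. Over all probe sets, 0 passed the adjusted threshold as reported, 5 with arrays centred on their medians, 5 with trend and robust settings, 5 with low probe sets left out, 3 with array weights and 0 to 2 with single arrays left out. No member was among them under any of these settings. The replicate block is given here only, because no label pairs the arrays: deviations from the group means had r = 0.102, 0.098 and 0.339 between arrays of the same number, and hypomorph 1 was most like WT 2 (r = 0.207). With the probe sets of a gene averaged, the changes were 0.39 for Il15ra and -0.23 for Il12b. The signal over background limits what can be read of Il23a, Il12b and Il12a.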
